A study of Homo sapiens with 8 samples.

Results

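Protein disulfide isomerases and the oxidases that recharge them are thiol oxidoreductases of the endoplasmic reticulum (ER), and 10 of their genes were followed here among 58302 gene identifiers. They were P4HB, PDIA3, PDIA4, PDIA5, PDIA6, TXNDC5, ERP29, ERP44, ERO1A and ERO1B, chosen by their function and from their known behaviour in the same comparison reported below. A549, an established human lung adenocarcinoma cell line, had been transfected with a control siRNA (siCTRL) or with an siRNA against APEX1 (siAPEX1), the gene of the DNA repair endonuclease APE1. Each group held 4 libraries of total RNA, prepared with a small RNA kit modified so that longer transcripts were also read. Both groups shared the cell line and the transfection, and both received only a transient siRNA. The paper calls its replicates biological. The labels do not say whether the 4 replicates of a group came from separate cultures, so the errors given measure the spread between these libraries.

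Secreted and membrane proteins acquire disulfide bonds in the ER lumen. Protein disulfide isomerases donate a disulfide to the folding protein, or reshuffle wrong ones, through pairs of cysteines in thioredoxin-like domains. ERO1 oxidases reoxidise the isomerases and pass the electrons to oxygen, giving hydrogen peroxide that ER peroxidases can use. Several of these genes belong to the unfolded protein response, in which the transcription factors ATF6, XBP1 and ATF4 raise ER folding capacity. A549 cells descend from alveolar epithelium, whose type II cells secrete surfactant proteins.

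The libraries held 1348386 to 1949886 counts, and every library labelled siAPEX1 was smaller than every library labelled siCTRL. APEX1 itself went against the label: it had 47 to 64 counts in the libraries labelled siCTRL and 19470 to 27916 in those labelled siAPEX1. For A549 cells treated with the APE1 siRNA, the paper reports silencing of the APE1 protein, shown by Western blot. The cause of the high APEX1 counts was not tested, so groups are named below by their labels. Without APEX1, nuclear protein-coding genes took 15.4% ± 0.297 (SD, n = 4) of the counts in the libraries labelled siCTRL and 12.2% ± 0.322 in those labelled siAPEX1. Of the lung epithelial markers, KRT7, KRT8, KRT18 and KRT19 were lower in the libraries labelled siAPEX1, CDH1 was higher, and EPCAM was too sparse to test. The 6 markers summed to 566.7 to 693.4 CPM (the count relative to the size of its library) in the libraries labelled siCTRL and to 220.8 to 287.4 CPM in those labelled siAPEX1. Their part in the results below was not tested. Leukocyte, fibroblast and endothelial markers summed to at most 2.32, 6.64 and 0.553 CPM in any library, and CD3E, PECAM1 and CDH5 were at 0 in all of them. In bulk RNA of a single cell line, fewer cells expressing a gene and less of its RNA per cell cannot be told apart.

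The cysteine pairs that define the isomerases can be read from the coding sequence. A tryptophan codon followed by 2 cysteine codons with 2 codons between them was searched in frame in the canonical GENCODE transcript of each gene. It occurred at 15 places in 6 of the genes: 3 each in PDIA4, PDIA5 and TXNDC5 and 2 each in P4HB, PDIA3 and PDIA6. At 13 of the 15 places, glycine and histidine codons lay between the cysteines. ERP29, ERP44, ERO1A and ERO1B held no such site, although ERO1A had 15 cysteine codons and ERO1B had 14. A site is printed for P4HB, the founding member,, with all 3 sites of PDIA4, the gene with the largest change, and the sites of PDIA5 that depart from the common form. Capitals mark the 2 cysteine codons.
P4HB, codons 53 and 56: gccccttggTGTggccacTGCaaggct
PDIA4, codons 91 and 94: gctccatggTGTggacatTGCaagcag
PDIA4, codons 206 and 209: gccccatggTGTggacacTGCaagaaa
PDIA4, codons 555 and 558: gcgccatggTGCgggcacTGCaagcag
PDIA5, codons 182 and 185: gccccctggTGCagcatgTGCaagagg
PDIA5, codons 426 and 429: gccccttggTGCccacacTGTaagaag

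Summed, the 10 genes had a smaller share of the counts in every library labelled siAPEX1. Most of the sum came from PDIA4, PDIA3, P4HB and PDIA6, so it mainly describes these genes. Their mean shares of the sum were 25.3%, 23.6%, 21.5% and 18.2% in the libraries labelled siCTRL. The 10 genes together had 1448, 1471, 1650 and 1263 counts in libraries 1 to 4 labelled siCTRL, and 451, 453, 473 and 462 counts in those labelled siAPEX1. They made up 0.518% ± 0.0208 (SD, n = 4) of the protein-coding counts in the libraries labelled siCTRL and 0.258% ± 0.0106 in those labelled siAPEX1. The ranges, 0.498% to 0.547% and 0.242% to 0.264%, did not overlap. On the CPM scale after correction with TMM factors, which set the bulk of genes equal between libraries, the sum was 726 ± 28.3 and 362 ± 14.0 CPM.

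Of the 10 genes, 9 had enough counts to be tested, and only TXNDC5 did not pass the filter on low counts. With a log2 fold change of at least 1 in size and an adjusted p of at most 0.05 (edgeR quasi-likelihood test over 5368 genes), 1 of the 9, PDIA4, was lower and 0 were higher in the libraries labelled siAPEX1. Over all genes tested, 5.68% were lower and 3.60% higher by this rule. By the adjusted p alone, 6 were lower and 1, ERO1A, was higher, against 15.8% lower and 15.9% higher over all genes. In 7 genes every library labelled siAPEX1 lay below every library labelled siCTRL, and in 1 every library lay above. Over all genes these shares were 14.9% and 14.0%. The same contrast chose the genes, so these counts describe them and are no test. The median log2 fold change was -0.79 over the 9 genes and -0.0035 over all genes tested.

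**Figure D1:**
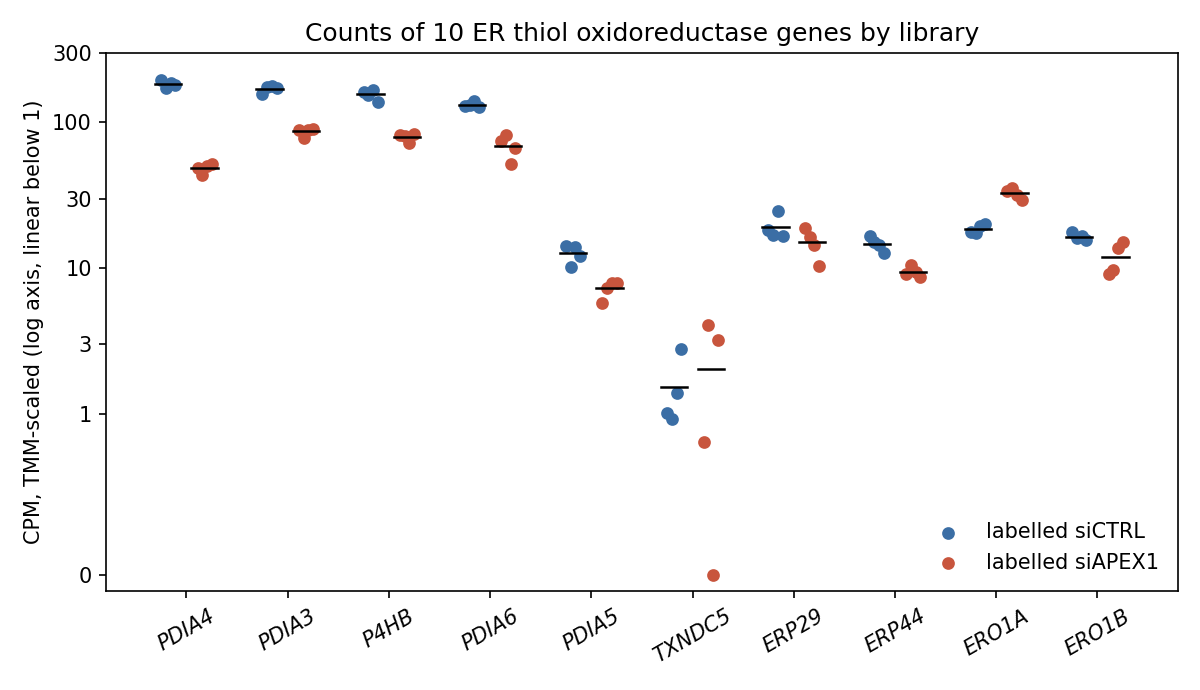
Level of each of the 10 genes in each library, as TMM-scaled CPM on a log axis that is linear below 1. Points are libraries (4 per labelled group) and bars are group means; PDIA4 shows the widest gap, from 184 to 48.6 CPM, ERO1A is the gene whose siAPEX1-labelled points all lie above, and the ERP29 points overlap.

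The isomerases with the most counts were PDIA4, PDIA3, P4HB and PDIA6. PDIA4 (ERp72, ENSG00000155660), at chr7:149003062-149028662 on the minus strand in GRCh38 with 10 exons in its canonical transcript, is an isomerase that works with the HSPA5 chaperone on folding chains. It had 387, 357, 404 and 327 counts in the libraries labelled siCTRL and 59, 54, 70 and 65 in those labelled siAPEX1. The highest siAPEX1-labelled count was far below the lowest siCTRL-labelled one. On the CPM scale PDIA4 went from 183.9 ± 9.22 to 48.6 ± 3.44 (SD, n = 4 each), a 3.78-fold lower level. The log2 fold change was -1.92 ± 0.109 (standard error).

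P4HB (PDI, ENSG00000185624), at chr17:81843159-81860856 on the minus strand, is the archetypal isomerase and also the beta subunit of prolyl 4-hydroxylase. It had 324, 321, 363 and 248 counts in the libraries labelled siCTRL and 100, 99, 100 and 105 in those labelled siAPEX1. PDIA3 (ERp57, ENSG00000167004), at chr15:43746394-43773279 on the plus strand, works on glycoproteins held by calnexin and calreticulin. It had 310, 362, 387 and 314 counts against 108, 96, 124 and 114. Neither gene overlapped between groups. The level of P4HB went from 156 ± 13.5 to 79.6 ± 5.13 CPM and that of PDIA3 from 171.1 ± 10.4 to 86.7 ± 5.89 CPM, and both log2 fold changes were -0.98, with standard errors of 0.104 and 0.101.

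PDIA6 (P5, ENSG00000143870), at chr2:10783391-10837977 on the minus strand, is an isomerase that also attenuates unfolded protein response sensors. It had 258, 273, 301 and 230 counts in the libraries labelled siCTRL and 90, 101, 72 and 84 in those labelled siAPEX1. Its siAPEX1-labelled libraries were the most spread of the abundant isomerases, with CPM values of 74.1, 82.0, 51.9 and 66.7, all below the lowest siCTRL-labelled value of 127 CPM. The log2 fold change was -0.95 ± 0.113.

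These last 3 genes lay just inside a log2 fold change of 1. The number lower by both criteria was 1 with all libraries and 2 without siCTRL replicate 1 (PDIA3, -1.02), without siCTRL replicate 4 (P4HB, -1.03) or without siAPEX1 replicate 2 (PDIA6, -1.02). Over all genes, 5.68% were lower with all libraries, and 5.63%, 6.09% and 6.40% without each of these libraries in turn. It was 5 when libraries were scaled by size only, where 12.2% of all genes were lower. It was 4 with a filter of at least 1 count in all libraries together (2.91% of all genes) or of at least 10 in every library (3.18%), and 5 at a fold threshold of 0.75 (9.89%). PDIA4 ranged from -2.26 to -1.85 and passed under every alternative.

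PDIA5 (ENSG00000065485), at chr3:123067025-123225227 on the plus strand, is an isomerase linked to activation of ATF6. It had 28, 21, 30 and 22 counts in the libraries labelled siCTRL and 7, 9, 11 and 10 in those labelled siAPEX1. The groups did not overlap, at a depth of 7 to 30 reads a library, and the log2 fold change was -0.79 ± 0.256. PDIA5 met the count filter in every library labelled siCTRL and not in all labelled siAPEX1, so the filter favoured a lower call. Its exons share 490 bases with SEC22A on the same strand, which had 38 counts over the 8 libraries. The call by adjusted p was lost with DESeq2 (-0.81) and without siAPEX1 replicate 1 (-0.67).

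TXNDC5 (ERp46, ENSG00000239264), an isomerase with 3 of the cysteine pairs, had 2, 2, 3 and 5 counts in the libraries labelled siCTRL and 1, 5, 0 and 4 in those labelled siAPEX1. No difference was detectable at this depth. Its exons share 2658 bases with the readthrough gene BLOC1S5-TXNDC5 on the same strand, which had 0 counts in every library. The gene counting of the aligner leaves out reads that fall on more than 1 gene, so how much TXNDC5 RNA was present cannot be read from its count.

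Among the members without the paired cysteine site, ERP44 (ENSG00000023318) retains ERO1 enzymes and unassembled proteins and returns them from the Golgi to the ER. It had 33, 31, 31 and 23 counts in the libraries labelled siCTRL and 11, 13, 13 and 11 in those labelled siAPEX1. The groups did not overlap, and the log2 fold change was -0.64 ± 0.229. The call by adjusted p was lost with DESeq2 (-0.66) and without siCTRL replicate 1 (-0.58), siCTRL replicate 2 (-0.63), or siAPEX1 replicate 1 (-0.60), 3 (-0.61) or 4 (-0.58).

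ERP29 (ENSG00000089248), a redox-inactive family member that assists secretion, had 36, 35, 53 and 30 counts in the libraries labelled siCTRL and 23, 20, 20 and 13 in those labelled siAPEX1. On the CPM scale the groups overlapped, at 16.6 to 24.6 and 10.3 to 18.9 CPM. The log2 fold change was -0.36 ± 0.207 and did not pass the adjusted p.

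The 2 oxidases parted. ERO1A (ENSG00000197930), at chr14:52639915-52695900 on the minus strand, is the broadly expressed, hypoxia-inducible ERO1 enzyme. It had 35, 36, 42 and 36 counts in the libraries labelled siCTRL and 41, 44, 44 and 37 in the smaller libraries labelled siAPEX1. The raw counts overlapped, and the scaled levels did not: 17.4 to 19.9 CPM against 29.4 to 35.7 CPM. The mean went from 18.6 ± 1.27 to 32.7 ± 2.71 CPM, 1.76-fold higher, with a log2 fold change of 0.81 ± 0.160. It was 0.47 when libraries were scaled by size only, a setting that moved the median of all genes to -0.34.

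ERO1B (ENSG00000086619), at chr1:236214681-236282019 on the minus strand, is the ERO1 enzyme best known from endocrine pancreas. It had 35, 33, 36 and 28 counts in the libraries labelled siCTRL and 11, 12, 19 and 19 in those labelled siAPEX1. The CPM values did not overlap, at 15.5 to 17.6 and 9.06 to 15.1 CPM, although the nearest libraries were close. The log2 fold change was -0.46 ± 0.216 and did not pass the adjusted p. A small nuclear RNA pseudogene, RNU2-70P, overlaps ERO1B on the other strand and had 49 counts over the 8 libraries; the strand setting of the counting is not stated in the sources used here.

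**Figure D2:**
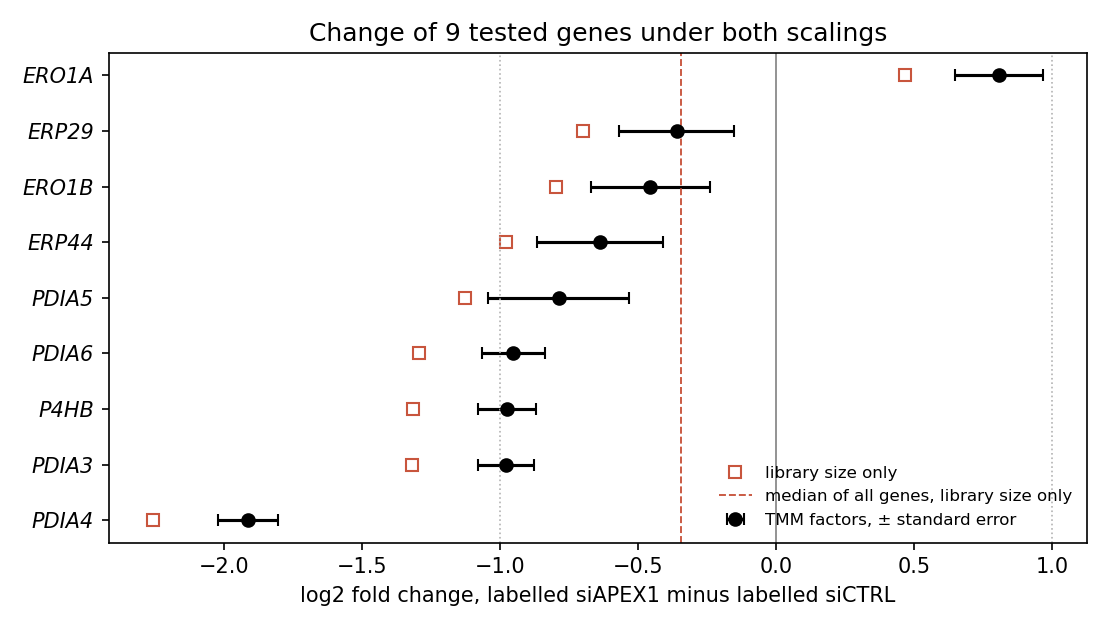
Log2 fold change of the 9 tested genes, libraries labelled siAPEX1 minus those labelled siCTRL. Black points are values with TMM factors and bars are standard errors; open squares are values scaled by library size only, the dashed line marks the median of all genes under that scaling (-0.34), and dotted lines mark a change of 1. Of the 9, 8 are below 0 under both scalings and ERO1A is above 0 under both.

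Ratios of counts within a library do not depend on how libraries are scaled. ERO1A had 1 to 1.29 counts for each ERO1B count in the libraries labelled siCTRL and 1.95 to 3.73 in those labelled siAPEX1. Against PDIA4 the ratio was 0.0904 to 0.110 and then 0.569 to 0.815. Against P4HB it was 0.108 to 0.145 and then 0.352 to 0.444. None of these ranges overlapped. ERO1A, the oxidase, and P4HB, the isomerase it recharges, thus changed unequally.

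PDIA4 moved apart from the other abundant isomerases. The ratio of P4HB to PDIA4 was 0.758 to 0.899 in the libraries labelled siCTRL and 1.43 to 1.83 in those labelled siAPEX1. PDIA3 to PDIA4 went from 0.801 to 1.01 up to 1.75 to 1.83, and PDIA6 to PDIA4 from 0.667 to 0.765 up to 1.03 to 1.87. P4HB and PDIA3 moved together: their ratio was 0.790 to 1.05 in the libraries labelled siCTRL and 0.807 to 1.03 in those labelled siAPEX1. As a share of all counts of the 10 genes, PDIA4 went from 25.3% ± 1.17 to 13.5% ± 1.25, and P4HB from 21.5% ± 1.24 to 22.0% ± 0.662.

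**Figure D3:**
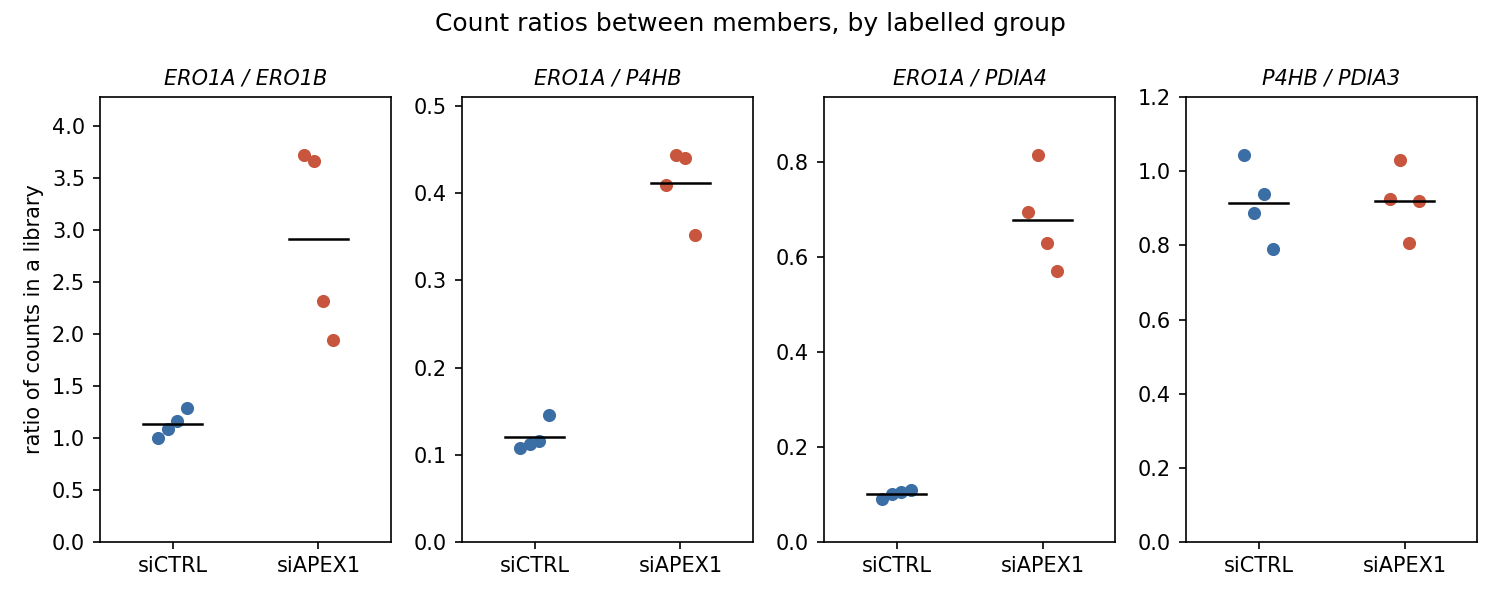
Ratio of counts of paired genes in each library, by labelled group, on linear axes from 0. Points are libraries and bars are means; the 3 ratios of ERO1A to ERO1B, P4HB and PDIA4 do not overlap between groups, and the ratio of P4HB to PDIA3 does (0.790 to 1.05 and 0.807 to 1.03).

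Levels between genes were compared per kilobase of exon, over the union of each gene's exons. In the libraries labelled siCTRL the order was PDIA4 (55.8 CPM per kilobase, range 52.4 to 59.0), PDIA6 (32.3, 31.1 to 34.1), PDIA3 (14.5, 13.2 to 15.2) and P4HB (14.0, 12.3 to 15.1). Over this length PDIA3 and P4HB did not differ beyond their spread, which was not so with the longest transcript as the length (below). ERP29 (6.25), PDIA5 (3.09) and ERO1A (2.46) followed, and the ranges of PDIA5 and ERO1A overlapped. ERO1B (1.07) and ERP44 (1.03) also overlapped. TXNDC5 had the lowest value, 0.352 CPM per kilobase, but its level cannot be ranked. Reads on the 2658 bases it shares with BLOC1S5-TXNDC5 are left out of its count, while its length includes those bases.

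In the libraries labelled siAPEX1, PDIA6 (16.8, range 12.7 to 20.0) and PDIA4 (14.7, range 13.3 to 15.7) overlapped at the top over the union of exons. ERO1A rose in the order to 4.32 CPM per kilobase (3.89 to 4.73), level with ERP29 at 4.91 (3.39 to 6.21) and above PDIA5 at 1.78. The order in these libraries depended on the length used. With the longest transcript as the length, PDIA6 (25.6, range 19.4 to 30.6) and PDIA3 (23.5, range 21.1 to 24.5) overlapped at the top and PDIA4 (16.6, at most 17.7) lay below both. In the libraries labelled siCTRL the levels of PDIA4, PDIA6, PDIA3 and P4HB were then 63.0, 49.3, 46.3 and 19.0 CPM per kilobase. The order of these means was the same as over the union of exons, but the overlaps were not. PDIA6 (47.5 to 52.0) and PDIA3 (42.2 to 48.5) then overlapped, and P4HB (16.7 to 20.5) lay below PDIA3. PDIA5 (4.56 to 6.31) and ERO1A (3.39 to 3.88) no longer overlapped.

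**Figure D4:**
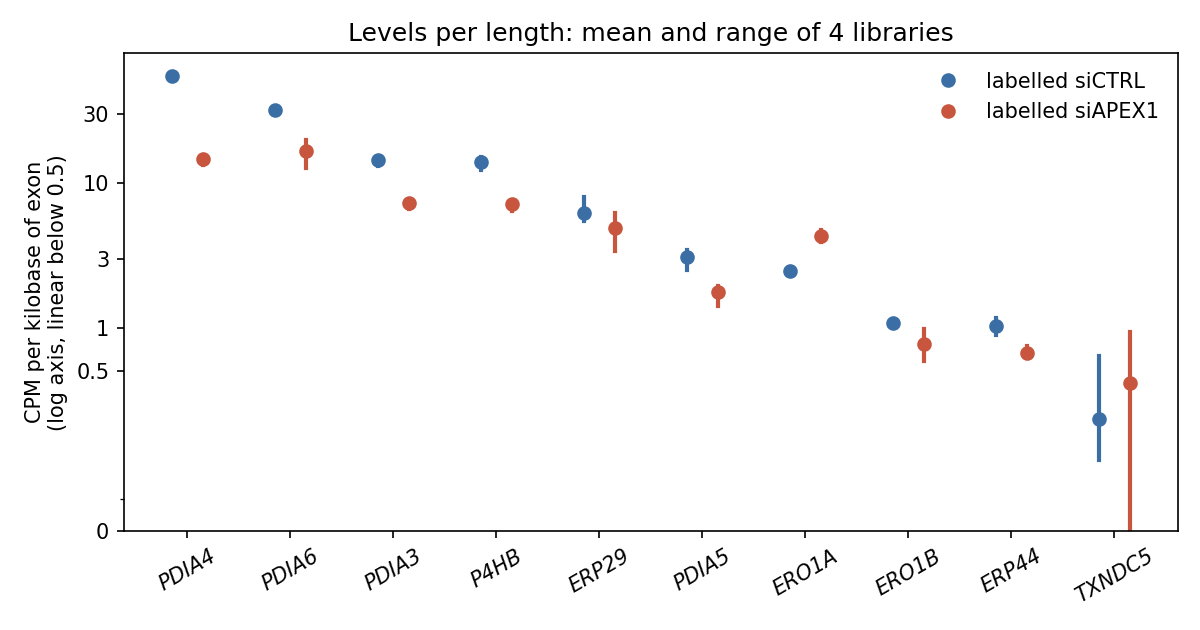
Level of each gene per kilobase of exon, on a log axis that is linear below 0.5, ordered by its mean in the libraries labelled siCTRL. Points are means and lines run from the lowest to the highest of 4 libraries; PDIA4 leads in the libraries labelled siCTRL (55.8 CPM per kilobase), and PDIA6 and PDIA4 overlap in those labelled siAPEX1, an overlap that is lost with the longest transcript as the length.

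The ER stress response element (ERSE), bound by NF-Y with ATF6 or XBP1, reads CCAAT, 9 bases, then CCACG. It was searched on both strands in the 250 bases before each start of the RefSeq promoter table (GRCh38.p14), which held 9 of the 10 genes with 12 starts; PDIA3 is not among them. It lay before PDIA6 and ERO1B, and before 26 of all 35116 promoters (0.074%). Both stretches are shown because they carry the element, with CCAAT and CCACG, or their reverse complements, in capitals.
PDIA6 (chr2:10812833-10812891, minus strand): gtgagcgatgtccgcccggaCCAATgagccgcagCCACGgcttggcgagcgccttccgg
ERO1B (chr1:236282163-236282208, minus strand): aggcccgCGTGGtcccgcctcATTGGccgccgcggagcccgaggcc
In PDIA6 it ran from base 86 to base 68 before the start, on the gene's strand, and in ERO1B from base 243 to base 225, on the other strand. The window before the other PDIA6 start held no match. Of the 59 bases printed for PDIA6, 7 lay in annotated exons. PDIA4, with the largest change, held no match to these letters in either of its 2 windows. The shorter CCAAT box, part of the same element, lay before 6 of the 9 genes (P4HB, PDIA4, PDIA6, TXNDC5, ERP44 and ERO1B) and 32% of all promoters. For both motifs a gene counts if any of its windows matches, while the share over all promoters is per window. The 2 figures are therefore not in the same unit. ERO1A, PDIA5 and ERP29 held none. A match is a description of the sequence and no evidence of binding.

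Of 15 other PDI family genes, 9 were tested: 1 was lower by both criteria, and by the adjusted p alone 2 were lower and 1 higher (median -0.33). Over all genes tested, 5.68% were lower and 3.60% higher by both criteria. By the adjusted p alone these shares were 15.8% and 15.9%. The same shares apply to each list below. All these lists were chosen with earlier results of these data known, so their counts are descriptions and no test. In lists this short, a count of 1 or 2 is not read as a result about the list. DNAJC10 (ERdj5), a reductase that unlinks wrong disulfides before degradation, went from 44.6 ± 4.57 to 20.5 ± 3.82 CPM (log2 fold change -1.11 ± 0.156, edgeR adjusted p = 2.66e-07). Without siAPEX1 replicate 1 it was -0.98 and the count of 1 became 0. AGR2, an isomerase of mucin-secreting epithelia, went from 127 ± 8.58 to 74.4 ± 4.97 CPM (-0.77 ± 0.105, edgeR adjusted p = 1.31e-07). TXNDC12 was the gene that rose (0.65 ± 0.257, edgeR adjusted p = 0.0489), and it was named after its value was seen. TXNDC12 was not followed under the alternatives.

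Of 8 other ER redox enzymes, 5 were tested and 1 passed. GPX8, an ER peroxidase that can use the hydrogen peroxide made by ERO1A, went from 13.8 ± 2.83 to 4.31 ± 1.61 CPM (-1.65 ± 0.300, edgeR adjusted p = 2.77e-05). It had 20 to 31 counts in the libraries labelled siCTRL and 3 to 8 in those labelled siAPEX1. GPX8 met the count filter only in the libraries labelled siCTRL, so the filter favoured a lower call. PRDX4, the ER peroxiredoxin, had a log2 fold change of -0.35 ± 0.180 (edgeR adjusted p = 0.140), and VKORC1, a vitamin K reductase that can also oxidise isomerases, one of 0.38 ± 0.251 (edgeR adjusted p = 0.260). The VKORC1 value rested on single libraries: it was 0.70 without siCTRL replicate 1 (edgeR adjusted p = 0.0360) and 0.16 without siCTRL replicate 3 (edgeR adjusted p = 0.667).

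Of 12 partner subunits and lectin chaperones, 7 were tested: 1 was lower by both criteria, and by the adjusted p alone 3 were lower and 1 higher (median -0.21). CALR (calreticulin), which presents glycoproteins to PDIA3, went from 246.7 ± 29.7 to 109.8 ± 7.86 CPM (-1.17 ± 0.103, edgeR adjusted p = 3.21e-12). The ratio of PDIA3 to CALR counts overlapped between groups, at 0.556 to 0.810 and 0.696 to 0.885. CANX (calnexin), the membrane-bound lectin with the same partner, had a log2 fold change of -0.21 ± 0.0945 (edgeR adjusted p = 0.0810). P4HA1, the catalytic subunit that pairs with P4HB in prolyl 4-hydroxylase, rose (0.73 ± 0.220, edgeR adjusted p = 0.00938) and was named after its value was seen. Its CPM values overlapped between groups, at 10.6 to 21.0 in the libraries labelled siCTRL and 17.9 to 32.4 in those labelled siAPEX1. The highest value of each group came from a single library (21.0 in siCTRL replicate 4, 32.4 in siAPEX1 replicate 3). P4HA1 was not followed under the alternatives. The ratio of P4HB to P4HA1 counts was 6.53 to 15.4 in the libraries labelled siCTRL and 2.22 to 4.5 in those labelled siAPEX1.

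Of 13 regulators of the unfolded protein response, 8 were tested and 2 were lower by the adjusted p, 1 of them by both criteria (median -0.14). ATF6, the membrane-bound factor that is cleaved under stress, went from 16.6 ± 3.32 to 7.84 ± 2.93 CPM (-1.06 ± 0.254, edgeR adjusted p = 0.00109). It had 29 to 39 counts in the libraries labelled siCTRL and 5 to 13 in those labelled siAPEX1. ATF6 met the count filter in every library labelled siCTRL and not in all labelled siAPEX1, so the filter favoured a lower call. The ATF6 value was -0.92 without siCTRL replicate 4 and -0.82 without siAPEX1 replicate 4, and the count of 1 then became 0. HERPUD1, which serves ER-associated degradation, was also lower (-0.58 ± 0.134, edgeR adjusted p = 7.49e-04). ATF4, the factor downstream of PERK, had a log2 fold change of -0.23 ± 0.145 (edgeR adjusted p = 0.233).

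All 12 ER lumenal chaperones and co-factors were tested, and 9 were lower by both criteria, with a median of -1.12. This list too was chosen with earlier results of these data known, so the count describes it and is no test. HSP90B1 (GRP94) went from 779.6 ± 23.1 to 346.2 ± 28.8 CPM and HSPA5 (BiP), the central ER chaperone, from 308.9 ± 35.2 to 147.8 ± 28.5 CPM. Their log2 fold changes were -1.17 ± 0.0890 (edgeR adjusted p = 6.39e-14) and -1.07 ± 0.110 (edgeR adjusted p = 2.09e-10), and HSPA5 was at -0.92, inside the fold threshold, without siAPEX1 replicate 3. HYOU1, the exchange factor of HSPA5, and CRELD2, a secreted stress-response protein, had larger changes, of -2.20 ± 0.164 and -2.08 ± 0.204. CRELD2 had 57 to 87 counts in the libraries labelled siCTRL and 9 to 17 in those labelled siAPEX1. It did not meet the count filter in all of the latter. MANF, SDF2L1 and DNAJB11, which bind HSPA5 or its clients, had -1.34, -1.31 and -1.28. DNAJB9, SDF2 and SIL1 did not pass. The ERSE lay before HSPA5, HSP90B1 and CRELD2. A second form searched, ERSE-II (ATTGG, 1 base, CCACG), lay before HYOU1 and SDF2L1, before none of the members and before 0.0513% of all promoters. The UPRE core (TGACGTG) lay before HYOU1, the member TXNDC5 and 1.68% of all promoters. The CCAAT box lay before 11 of the 12 chaperones, with genes and promoters counted as above.

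**Figure D5:**
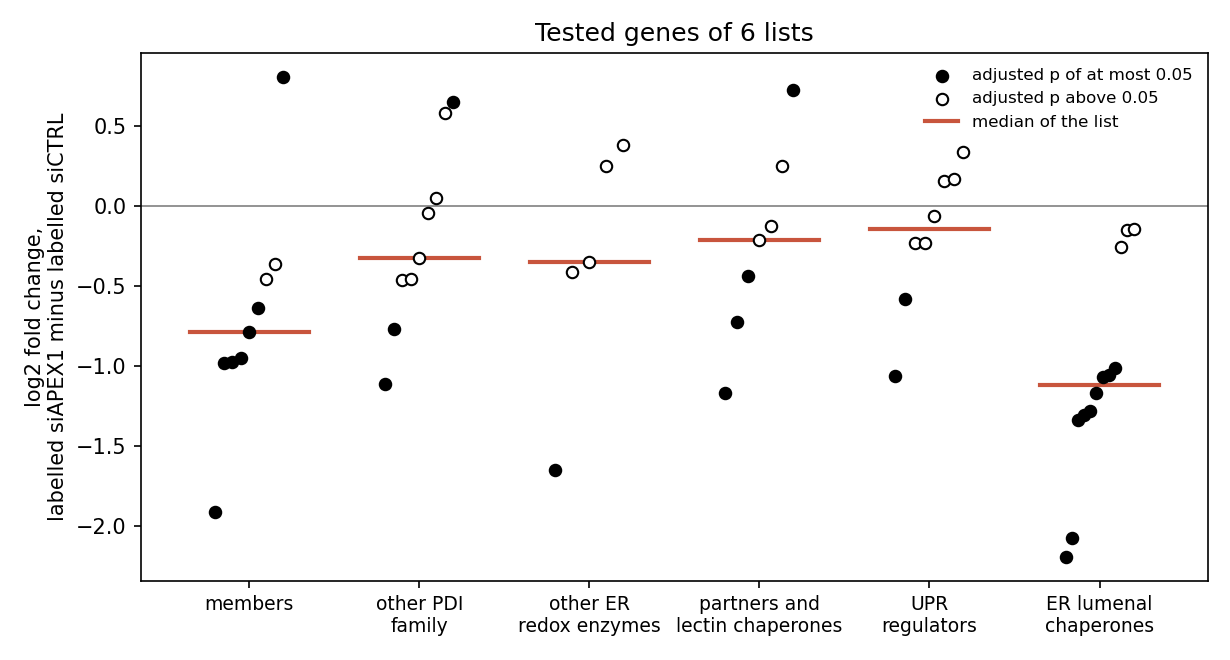
Log2 fold change (libraries labelled siAPEX1 minus siCTRL) of the tested genes of 6 lists. Each point is a gene, filled where the adjusted p is at most 0.05, and lines are list medians, from -0.14 for the regulators of the unfolded protein response (UPR) to -1.12 for the ER lumenal chaperones.

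Of 5359 genes compared, those whose levels followed the summed members most closely over the 8 libraries were IDS, PDK4 and PRSS23. Likeness was the root mean square of the log2 difference after each gene was centred, and it was 0.0933, 0.0976 and 0.105. IDS went from 149.7 ± 5.76 to 70.2 ± 5.04 CPM, close to the course of the sum. The 8 libraries differ mainly by group, so this likeness rests largely on the group difference.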

How the data were processed

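The authors sequenced single-end reads of A549 total RNA libraries made with the SMARTer smRNA kit, trimmed them, aligned them with STAR 2.5.3a to GRCh38 and deposited raw counts per Ensembl gene, with no normalization. The annotation release and the strand column counted are not given in the sources used here. The 10 members and all lists were chosen with earlier results of these data known. Identifiers were matched to GENCODE 44 (57532 of 58302). Genes passing filterByExpr (minimum count 10, minimum total 15) were fitted with edgeR 4.0.16 (quasi-likelihood test, TMM factors, Benjamini-Hochberg adjustment over 5368 genes) in R 4.3.3. Standard errors are the log2 fold change over the square root of F. CPM used TMM-scaled sizes of the tested counts. Fits were checked on data with known answers. Named genes were all members, from each list the genes past both thresholds (at most 5, by size of change) and the 2 with the highest mean CPM, and the 3 genes most like the members' sum. Overlap of CPM between groups was read from the 4 libraries each. DESeq2 1.42.0, other scalings, filters, thresholds, a replicate block and leaving out each library were tried. Promoters came from the RefSeq table and coding sites from GENCODE transcripts; no protein sequence was used here. Depth limits members under about 20 counts, and errors cover the spread between libraries.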

Additional observations from a re-analysis of the deposited data

Results flagged for a closer look

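In 34 groups of 4 libraries, the highest or lowest value was compared with its neighbour by Dixon's ratio, which chance passes in about 1 in 20 groups. PDIA3 stood apart in siAPEX1 library 2, at 77.92 CPM against 88.93 to 90.55 CPM in the other 3 libraries of that label. The summed level of the 10 genes stood apart in siAPEX1 library 3, at 341 CPM against 367 to 371.4 CPM. Both values lay below all libraries labelled siCTRL, and without those libraries the log2 fold change of PDIA3 was -0.91 (library 2 left out) and the median over the tested members was -0.81 (library 3 left out).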

How the results depend on the processing

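The count of members lower by both criteria, 1, became 5 with library size only, 4 with at least 1 count in all libraries together, 4 with at least 10 counts in every library and 5 at a fold threshold of 0.75, where the count of higher members went from 0 to 1 and all genes gave 531 lower (9.89%) and 404 higher (7.53%) calls; without single libraries it was 1 to 2. Scaling by library size only moved the median of all genes to -0.34 and the calls over all genes from 305 lower and 193 higher to 655 and 84. By the adjusted p alone, 6 members were lower, 4 with DESeq2, 8 with library size only and 4 to 6 without single libraries. Calls over all genes by the adjusted p alone were not counted under these alternatives. The change to 8 therefore has no share over all genes to be read against. Among other PDI family genes the count of 1 became 2 with library size only and 2 at the lower threshold, and 0 to 1 without single libraries. Other ER redox enzymes and regulators, each with a count of 1, fell to 0 under the 10-count filter, since GPX8 and ATF6 were then not tested; regulators gave 0 to 1 without single libraries. Partners became 2 with library size only, and chaperones stayed at 7 to 9 throughout. Calls over all genes with DESeq2 were 256 lower (3.34%) and 165 higher (2.16%) of 7656 tested. The 1-count filter gave 648 (2.91%) and 295 (1.32%) of 22272, and the 10-count filter 100 (3.18%) and 81 (2.57%) of 3147. Without single libraries, 5.63% to 6.40% of all genes were lower by both criteria. The median level per kilobase over tested members in the libraries labelled siCTRL, 6.25, became 11.2 with the longest transcript as the length. Replicate numbers did not pair the libraries (correlations of deviations from -0.037 to -0.0035, and no library was best matched by its own number); with the replicate block 1 member was lower by both criteria and all genes gave 301 lower and 193 higher calls. Of the values for single named genes under these alternatives, 421 kept direction and side of an adjusted p of 0.05, 9 newly passed it, 8 no longer passed it, and none reversed. By fold and adjusted p together, 420 of 438 kept their side, 14 newly passed and 4 no longer passed; the cause was not tested.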
